A study of Mus musculus with 6 samples.

Results

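The DNA replication machinery was followed through 52 genes, picked by name for their known roles, with earlier results of these data known. They cover origin licensing, the replicative helicase and its activators, the polymerases, the sliding clamp and its loader, and single-strand binding. They also cover Okazaki fragment joining, nucleotide supply, cyclin E with Cdk2, and 3 chromatin factors tied to S phase. Counts set beside shares of all genes are therefore descriptive. All 52 were found among the 55385 genes of the deposited table, on 1 row each, and all 52 had a mean of at least 1 FPKM (fragment counts divided by transcript length and by library size) over the 6 libraries. The cells were Neuro2A (N2A), a mouse neuroblastoma line, which received either a small interfering RNA (siRNA) directed at circCpsf6, a circular RNA whose name is that of the gene Cpsf6 (si-circCpsf6, 3 libraries), or the comparison siRNA si-NC (3 libraries). Both siRNAs were delivered at 100 nM with RNA iMAX reagent into the same line in the same medium, and no source used here gives the hours between transfection and harvest. A value per gene does not separate circCpsf6 from the linear Cpsf6 mRNA, so the silencing itself was not checked here. Nothing in the labels shows whether the replicates came from different cultures. The p-values therefore reflect only how much these libraries vary, and that variation may be technical.

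Replication starts when the origin recognition complex, with Cdc6 and Cdt1, loads a ring of the Mcm2 to Mcm7 proteins on DNA during G1. Cyclin E with Cdk2 and the Dbf4-dependent kinase then recruit Cdc45 and the GINS complex, which turn the ring into an active helicase, and polymerases alpha, delta and epsilon copy the strands behind it. Many of these genes are transcribed in a burst before S phase under E2F transcription factors, while several origin recognition subunits are made throughout the cycle, and the cycle-regulated ones are commonly read as markers of proliferating cells in tumour lines. In bulk samples, fewer cells passing through S phase and less RNA per cell cannot be told apart.

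Promoter sequence was available for 43 of the 52 genes in RefSeq's table for GRCm38.p6, as windows from 250 bases before to 50 bases after each start site. The windows were searched on both strands for 4 octamers that E2F factors are known to bind, TTTCCCGC, TTTGGCGC, TTTCGCGC and TTTGCCGC. TTTCCCGC was found for 9 genes, TTTCGCGC for 8, TTTGGCGC for 7 and TTTGCCGC for 0, some genes having more than 1. At least 1 octamer stood in a window of 18 of the 43 genes (41.9%), against 440 of 8860 tested genes with a window (4.97%) and 704 of all 27025 symbols (2.6%). The general promoter motif CCAAT, also searched on both strands, was in 27 of the 43 (62.8%) and in 43.9% of the tested genes. By role, the octamer was found for 4 of 5 MCM ring genes with a window, 4 of 8 licensing genes and 4 of 7 polymerase genes, and for 2 of 3 chromatin factors and 0 of 5 nucleotide supply genes. The stretches below are examples of octamers in ring, licensing and polymerase genes, with Cdk2 added as a gene above 0. They are written 5′ to 3′ on the gene's strand, with octamers in capitals and overlapping octamers as 1 run.
Cdc6, chr11:98907987-98908046, plus strand: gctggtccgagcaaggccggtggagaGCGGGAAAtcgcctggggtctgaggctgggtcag
Mcm5, chr8:75109330-75109389, plus strand: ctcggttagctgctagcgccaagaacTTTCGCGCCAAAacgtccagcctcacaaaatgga
Mcm6, chr1:128359782-128359841, minus strand: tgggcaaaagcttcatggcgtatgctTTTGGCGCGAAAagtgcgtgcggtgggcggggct
Pola1, chrX:93632260-93632319, minus strand: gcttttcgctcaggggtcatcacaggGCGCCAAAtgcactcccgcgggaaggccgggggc
Orc1, chr4:108579416-108579445, plus strand: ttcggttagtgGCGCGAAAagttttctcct
Mcm7, chr5:138172030-138172059, minus strand: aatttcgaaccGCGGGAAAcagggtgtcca
Orc3, chr4:34614965-34614994, minus strand: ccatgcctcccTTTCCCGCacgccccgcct
Cdk2, chr10:128705173-128705202, minus strand: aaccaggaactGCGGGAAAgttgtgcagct
Genes with an octamer spanned nearly the whole range of responses: the first 4 stretches belong to genes with log2 fold changes (si-circCpsf6 minus si-NC, described below) between -0.97 and -0.70, the last 2 to Orc3 and Cdk2 at -0.07 and 0.14. The median log2 fold change was -0.50 for the 18 genes with an octamer (range -0.97 to 0.14) and -0.37 for the 25 without (range -1.04 to 0.11). A match describes letters in a window, and the absence of a match says nothing of the factor.

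The libraries were alike in the number of genes detected and less alike in other measures. Between 12671 and 13080 genes reached 1 FPKM in a library, and mitochondrially encoded protein-coding genes made up 15.0% to 20.6% of all FPKM of a si-NC library and 16.4% to 18.5% of a si-circCpsf6 library. The number of reads behind a value is unknown, since at most 33.9% of low values came out as whole multiples of a step within 0.1. Of 13 neuroblast markers, 10 had a mean of at least 1 FPKM. Nefl and Nefm stayed at or below 0.04 FPKM, and the list summed to 743 to 935 FPKM in si-NC and 648 to 675 in si-circCpsf6. Of the markers of other cell types, a mean of 1 FPKM or more was reached by 2 of 7 for fibroblasts, 1 of 8 for glia, 0 of 6 for macrophages, 1 of 4 for endothelium and 0 of 5 for epithelium. The 7 fibroblast markers summed to 2.06 to 8.99 FPKM in si-NC and 5.31 to 10.4 in si-circCpsf6, 8 glial markers (Aqp4 and Olig2 at 0) to 3.29 to 4.10 and 1.36 to 3.04, and 6 macrophage markers to 1.09 to 1.62 and 0.96 to 1.2. For 4 endothelial markers the sums were 0.79 to 1.21 and 1.59 to 3.19 FPKM, and for 5 epithelial markers (Krt18 at 0) 0.49 to 0.80 and 1.09 to 1.43. The neuroblast, glial, endothelial and epithelial sums did not overlap between the groups, but a few genes carried them. Most of the neuroblast sum came from Tubb3 (mean 506 FPKM in si-NC, 392 in si-circCpsf6) and Hand2 (167 and 120). Most of the glial sum came from Mbp (2.84 and 1.82), and most of the epithelial sum from Krt8 (0.56 and 1.26). The endothelial sum was nearly all Pecam1 (0.87 and 1.44) and Tek (0.167 and 0.937). A sum therefore does not describe its whole list. Single markers could run against or apart from their list. Pdgfrb, of the fibroblast list, read 1.57, 1.45 and 0.35 FPKM in si-NC and 4.31, 4.24 and 4.88 in si-circCpsf6 and was the only marker called by limma (log2 fold change 1.42, adjusted p = 0.0455). Mycn, of the neuroblast list, read 18.73, 6.74 and 12.56 FPKM against 23.81, 19.38 and 23.82, above si-NC where the list sum lay below. The part of these markers in the results below was not tested.

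For the replication genes si-NC replicate 2 stood apart from the other si-NC libraries. It was the lowest of the 3 si-NC libraries for 47 of the 52 genes (90.4%), against 35.9% of the 12974 tested genes. It read at or below the highest si-circCpsf6 library for 47 of the 52, against 69.7% of tested genes. Si-NC replicate 1 was the highest of its group for 45 of the 52 (36.4% of tested genes) and was at least 1.5 times si-NC replicate 2 for 40 of them, against 11.4% of tested genes. Expressed as the median difference from each gene's si-NC mean in log2(FPKM + 1), the 52 genes stood at 0.39, -0.56 and 0.14 in si-NC replicates 1 to 3. The same median was -0.59, -0.43 and -0.23 in si-circCpsf6 replicates 1 to 3, so that si-NC replicate 2 lay among the si-circCpsf6 libraries. Over all tested genes these medians were between -0.04 and 0.01 in all 6 libraries. Si-circCpsf6 replicate 1 was the lowest of its group for 39 of the 52 genes (43.8% of tested genes). Mitochondrial transcripts took 20.6% of summed FPKM in si-NC replicate 2, near the 20.1% of si-NC replicate 3 and above the 15.0% of si-NC replicate 1, and their part in these values was not tested. Because of this spread, results are given with and without si-NC replicate 2. That library was picked for its low values in these genes, so log2 fold changes without it lie lower by construction and are descriptive.

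**Figure D1:**
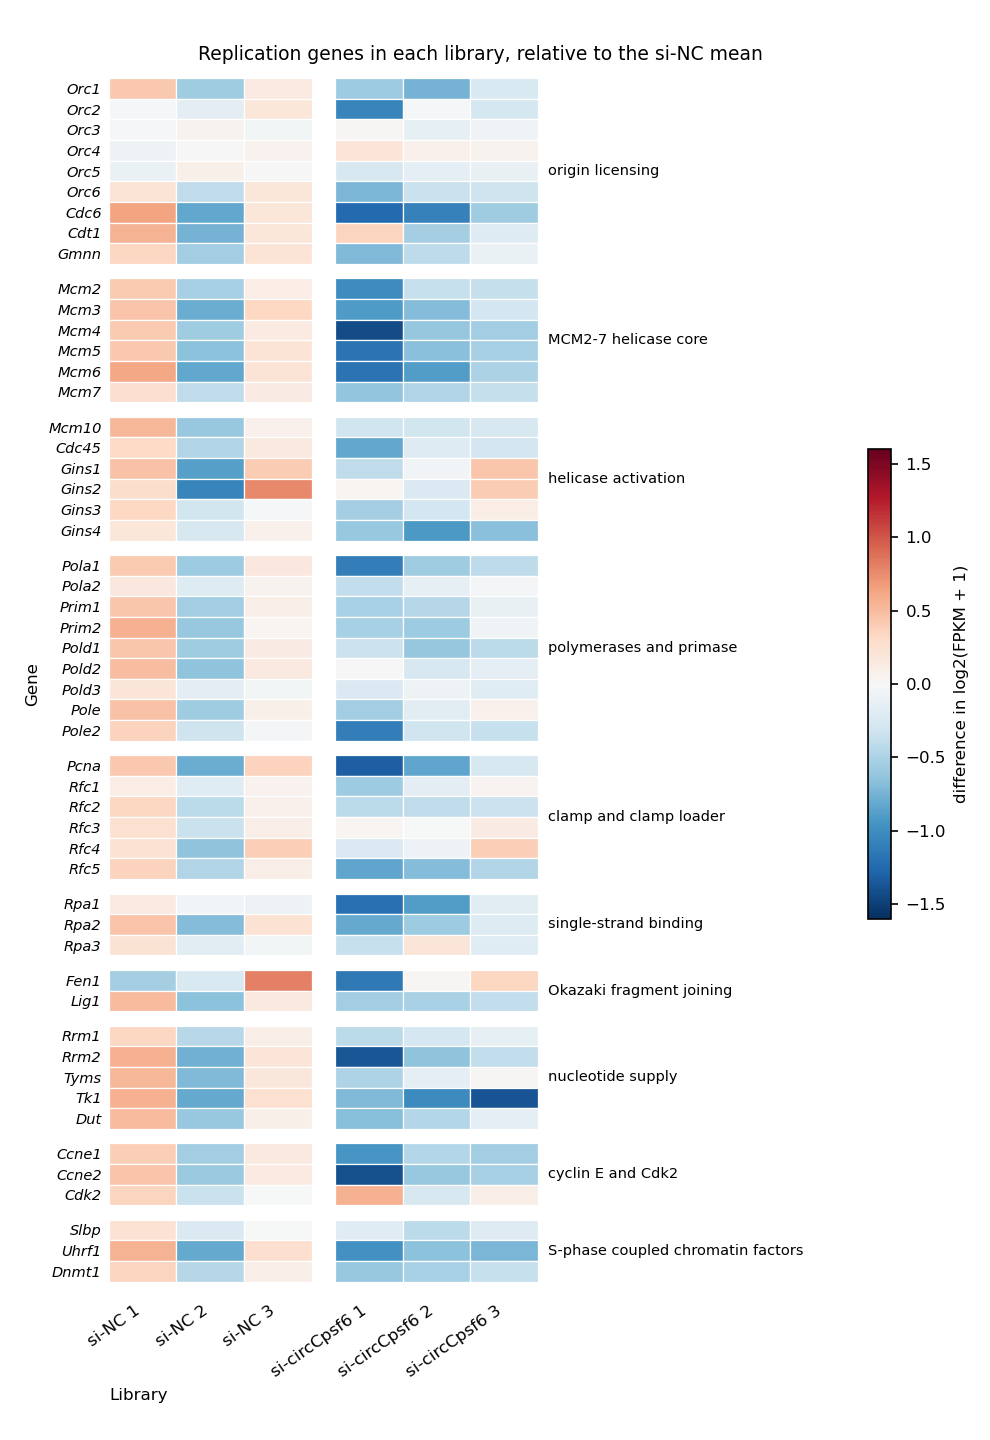
Each row is a replication gene, each column a library, and colour is the difference from the gene's si-NC mean in log2(FPKM + 1), red above and blue below. Si-NC replicate 2 is blue for most genes, like the 3 si-circCpsf6 libraries, while Orc3, Orc4 and Orc5 are pale in all 6 libraries.

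Setting si-circCpsf6 against si-NC addresses how gene expression differs after siRNA against the circle. Most replication genes read lower in si-circCpsf6, but none differed beyond the spread between libraries once all genes were taken into account. Of the 52 log2 fold changes 47 were below 0, against 52.8% of tested genes, and their median was -0.44, against -0.021 over all tested genes. With limma on log2(FPKM + 1) and Benjamini-Hochberg adjustment over 12974 genes, 0 of the 52 were called lower and 0 higher at an adjusted p under 0.05, where 0.786% of tested genes were called lower and 0.902% higher (1.69% in either direction). At an unadjusted p under 0.05, 13 of the 52 were lower, against 10.1% of tested genes, and 0 were higher, against 10.2%. The 3 si-circCpsf6 values lay wholly below the 3 si-NC values for 4 genes (Orc5, Gins4, Rfc5 and Rpa1), a share below the 14% of tested genes with that pattern. They lay wholly above for 0 genes, against 12.8%. The smallest adjusted p of the 52 belonged to Gins4 (limma, 0.0727).

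Without si-NC replicate 2, 51 of the 52 log2 fold changes were below 0 (52.1% of tested genes), with a median of -0.68. In that fit 34 were lower at an unadjusted p under 0.05, against 9.3% of tested genes, and 40 had all si-circCpsf6 values below both remaining si-NC values, against 20.9%. The left-out library was chosen because it read low for these same genes, so both counts rise by construction. The shares of tested genes, which did not guide that choice, are not a like comparison. Still 0 of the 52 had a limma adjusted p under 0.05 in that fit, where 0.247% of tested genes did, and the smallest was 0.0629, for Uhrf1. Leaving out any other library lowered the count of 13. Among si-NC libraries, 1 gene was lower at an unadjusted p under 0.05 when replicate 1 was dropped and 2 when replicate 3 was. Among si-circCpsf6 libraries, the count was 2, 8 and 11 when replicate 1, 2 or 3 was dropped. The median was -0.24 without si-NC replicate 1. The authors' deposited table gave a q under 0.05 for 6 of the 52, all lower (Cdc6, Mcm4, Mcm5, Mcm6, Tk1 and Uhrf1), against 2.29% of the genes tested here and 0.58% of all rows. The authors' deposited table marked Cdc6, Pola1 and Tk1 as significant and lower, 3 of the 52, against 1.9% of the genes tested here, and marked 0 of the 52 as higher, against 2.84%. That mark did not follow q alone. Pola1 was marked at a q of 0.08, while Mcm4, Mcm5, Mcm6 and Uhrf1 were not marked at 0.04. The deposited log2 fold changes were -1.31, -1.02 and -1.34 for the marked Cdc6, Pola1 and Tk1. For the unmarked Mcm4, Mcm5, Mcm6 and Uhrf1 they were -0.92, -0.88, -0.99 and -0.93. The mark thus went with the size of the fold change and is not a like threshold to a limma call.

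**Figure D2:**
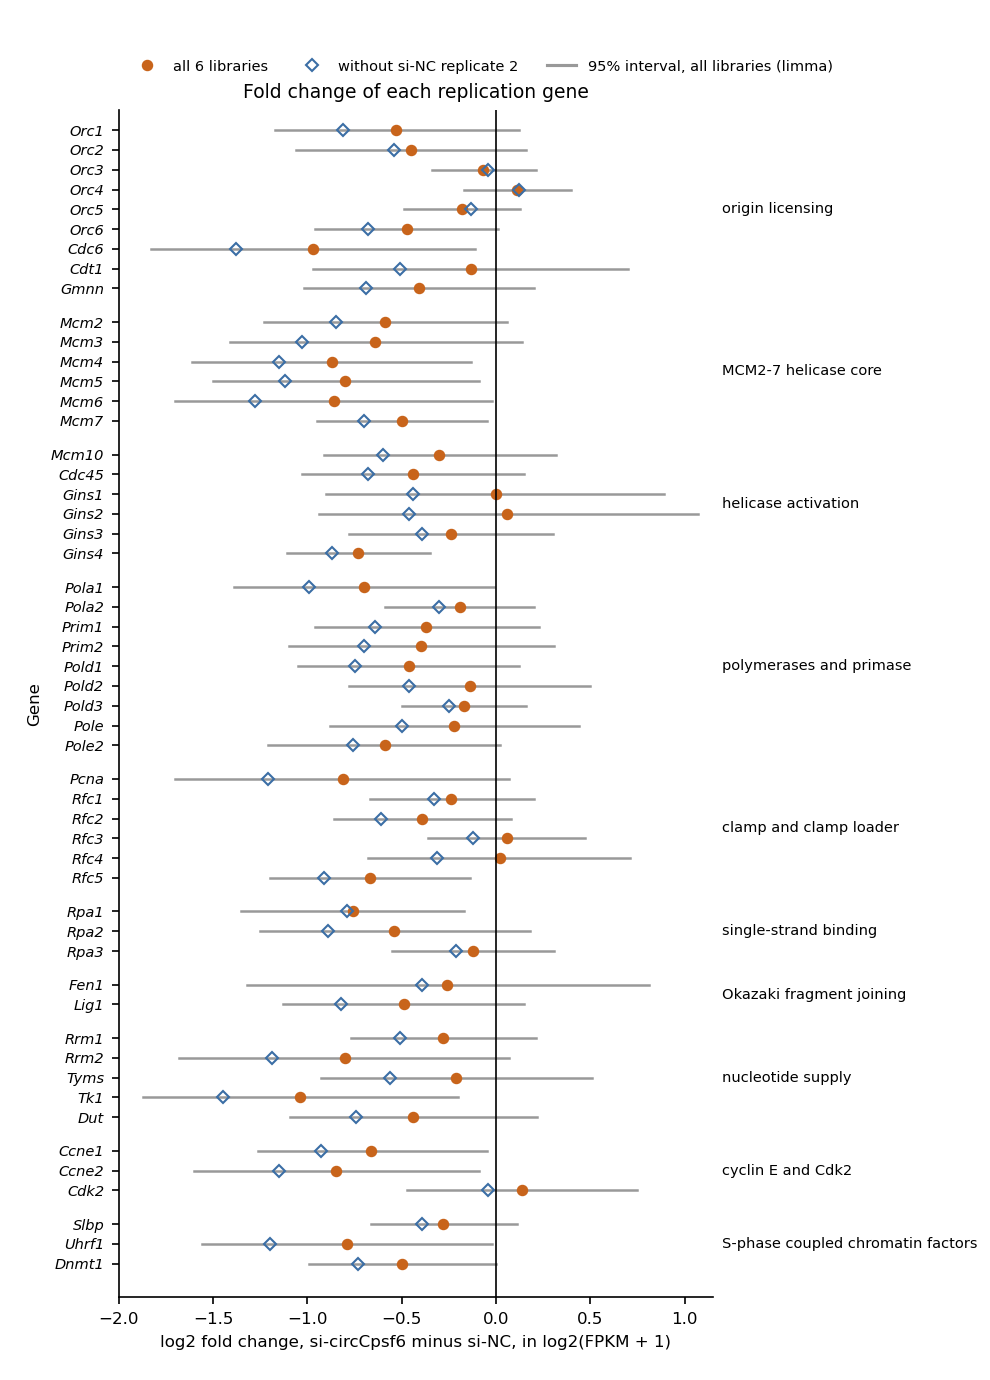
Log2 fold change of each gene in log2(FPKM + 1), si-circCpsf6 minus si-NC: filled circles from all 6 libraries with limma's 95% interval as a line, open diamonds without si-NC replicate 2. The diamonds lie to the left of the circles for nearly all genes, and Orc3 and Orc4 stay near 0 in both.

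Among licensing genes, log2 fold changes ran from -0.97 to 0.11, and no test compared these genes with each other. Orc1, the origin recognition subunit known to come and go with the cycle, read 3.59, 1.30 and 2.77 FPKM in si-NC and 1.29, 1.03 and 1.87 FPKM in si-circCpsf6 (replicates 1 to 3 in this order, here and below). Its groups overlapped through si-NC replicate 2. Orc3, Orc4 and Orc5, subunits that sit in the stable core of the complex, varied little: all 6 libraries lay between 8.41 and 9.78 FPKM for Orc3, between 5.59 and 7.02 for Orc4 and between 3.57 and 4.91 for Orc5. The Orc5 groups nevertheless lay apart, at 4.14, 4.91 and 4.53 FPKM in si-NC and 3.57, 3.94 and 4.09 in si-circCpsf6, with a log2 fold change of -0.18 that did not pass the test. Orc4 was the only licensing gene above 0 in the fit, at 5.59, 5.98 and 6.28 FPKM in si-NC and 7.02, 6.35 and 6.20 in si-circCpsf6, with groups that overlapped. Its log2 fold change was 0.11 (95% interval -0.17 to 0.40) and that of Orc3 was -0.07 (-0.34 to 0.21). Orc2, another core subunit, had a log2 fold change of -0.45 and was lowest in si-circCpsf6 replicate 1 (6.75 FPKM, against 12.26 to 17.40 in the other libraries). Exons of Orc5 overlap the pseudogene Gm15421 on the same strand, and those of Orc4 overlap Acvr2a and Mbd5 on the opposite strand. Of the 52 genes, 20 had another gene's exon over theirs, 4 of them on the same strand, and reads could be shared there.

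Cdc6, the loader that brings the MCM ring to origins, had the largest difference of the licensing genes. It read 10.15, 3.02 and 7.18 FPKM in si-NC and 2.01, 2.39 and 3.81 FPKM in si-circCpsf6, so only si-NC replicate 2 fell within the si-circCpsf6 range. The log2 fold change was -0.97 ± 0.37 (SE, n = 3 per group; limma adjusted p = 0.201), and -1.38 without si-NC replicate 2 (limma adjusted p = 0.0872). Orc6, the smallest subunit of the complex, read 17.65, 11.07 and 17.38 FPKM against 8.68, 11.49 and 11.79, with a log2 fold change of -0.47 ± 0.21 (SE, n = 3 per group; limma adjusted p = 0.256). Again only si-NC replicate 2 overlapped the other group. Cdt1, the partner of Cdc6 in loading, and Gmnn, which encodes the Cdt1 inhibitor geminin, had log2 fold changes of -0.13 and -0.41. The log2 ratio of Cdt1 to Gmnn within a library was 0.65, 0.23 and 0.41 in si-NC and 1.57, 0.32 and 0.32 in si-circCpsf6. The high ratio of si-circCpsf6 replicate 1 alone put the group means apart by 0.30, and without it the difference was -0.11 (exact two-sided permutation test over all 6 libraries, p = 0.8). With 3 against 3 libraries this test cannot give a p below 0.1, here and for the ratios below. The exons of Orc6 overlap those of Vps35 on the opposite strand, and without known strand handling reads of both could be shared.

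None of the 6 genes of the MCM ring passed the adjusted test. All 6 log2 fold changes were below 0, with a median of -0.72 and a range of -0.87 to -0.50. At an unadjusted p under 0.05, 4 of the 6 were lower, against 10.1% of tested genes. The si-circCpsf6 values lay wholly below si-NC for 0 of the 6, against 14%. Summed over the ring, FPKM was 238, 111 and 200 in si-NC and 82.2, 111 and 127 in si-circCpsf6, so the ring as a whole was as low in si-NC replicate 2 as in si-circCpsf6 replicate 2. Mcm4 read 37.04, 18.24 and 30.54 FPKM against 9.52, 17.59 and 18.33, a log2 fold change of -0.87 ± 0.32 (SE, n = 3 per group; limma adjusted p = 0.182). Mcm5 read 34.01, 15.46 and 29 FPKM against 10.37, 15.30 and 16.85, a log2 fold change of -0.80 ± 0.30 (SE, n = 3 per group; limma adjusted p = 0.199). In both genes si-NC replicate 2 fell inside the si-circCpsf6 range, and si-circCpsf6 replicate 1 was the lowest library. Without si-NC replicate 2 all 6 ring genes had every si-circCpsf6 value below the si-NC values (20.9% of tested genes). All 6 were then lower at an unadjusted p under 0.05 (9.3% of tested genes), with a median of -1.08. That library was left out for its low values in these genes, so both counts rise by construction. None passed the adjusted test in the fit without it. The smallest adjusted p in that fit was 0.0879, for Mcm6 (log2 fold change -1.28).

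The composition of the ring's mRNA differed between libraries. Mcm7 made up 16.4% and 17.8% of the ring's summed FPKM in si-NC replicates 1 and 3, where the ring was highest, and 21.8% in si-NC replicate 2 and 24.8%, 20.5% and 19.4% in si-circCpsf6. Mcm6 had the largest share in si-NC replicates 1 and 3, at 22.0% and 19.9%, and 16.8% in si-NC replicate 2. The shares of Mcm2 ranged from 14.0% to 17.8% and those of Mcm5 from 12.6% to 14.5%. Exons of Mcm7 overlap Cops6 and Ap4m1 on the opposite strand and Mir25 and Mir93 on its own strand, so its reads could be shared. No test was made of the shares.

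**Figure D3:**
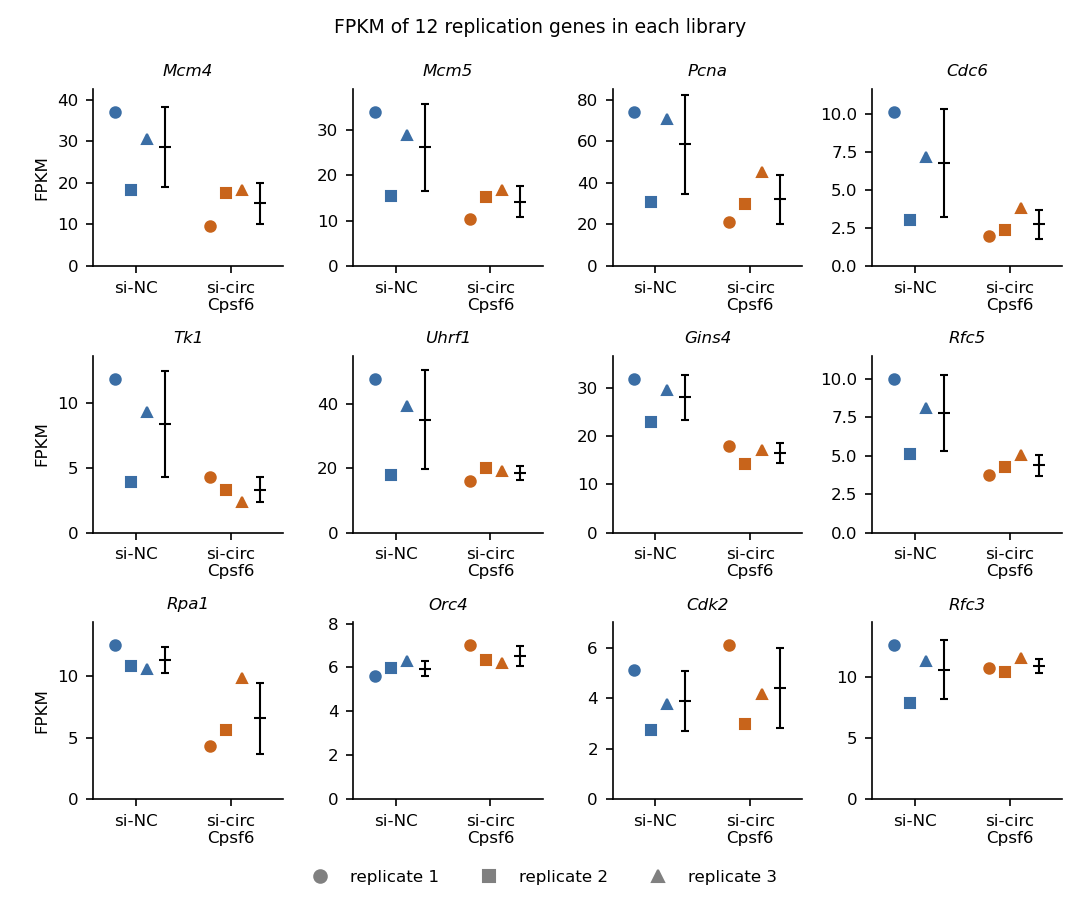
FPKM of 12 genes in each library, with circles, squares and triangles for replicates 1 to 3, and the mean with SD (n = 3) in black. For Mcm4, Mcm5, Pcna, Cdc6, Tk1 and Uhrf1 the si-NC square lies within or near the si-circCpsf6 values, for Gins4, Rfc5 and Rpa1 the groups do not overlap, and Orc4, Cdk2 and Rfc3 show no lower si-circCpsf6 group.

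Of the 6 helicase activators 5 were below 0 with all libraries and 6 without si-NC replicate 2. Gins4, a subunit of the GINS complex that joins the ring to Cdc45 (chromosome 8, 23226616 to 23237659, GRCm38), had the smallest p of the replication genes. It read 31.97, 22.92 and 29.51 FPKM in si-NC and 18.03, 14.22 and 17.22 FPKM in si-circCpsf6. The groups did not overlap, even though si-NC replicate 2 was again the lowest si-NC library. The log2 fold change was -0.73 ± 0.17 (SE, n = 3; 95% interval -1.11 to -0.35; unadjusted p = 0.00255, limma adjusted p = 0.0727), and the authors' deposited table gave a q of 0.05. For the other GINS genes log2 fold changes were 0.00 for Gins1, 0.06 for Gins2 and -0.24 for Gins3. Without si-NC replicate 2 they were -0.44, -0.46 and -0.39, beside -0.87 for Gins4, and no test compared these genes with each other. Gins2 ranged widely within groups, at 20.68, 7.61 and 29.37 FPKM in si-NC and 17.15, 14.11 and 22.55 in si-circCpsf6, with an interval of -0.94 to 1.07 around its log2 fold change. The sign of Gins2 also turned when si-circCpsf6 replicate 3 was dropped (-0.11). Cdc45, which completes the helicase, read 12.15, 6.54 and 10.68 FPKM against 4.92, 8.10 and 7.56, a log2 fold change of -0.44 ± 0.25 (SE, n = 3 per group; limma adjusted p = 0.379). Mcm10, needed to start unwinding, was nearly level in si-circCpsf6 (7.11, 7.12 and 7.39 FPKM) and varied in si-NC (13.55, 5.62 and 9.62 FPKM).

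All 9 polymerase and primase genes were below 0, with a median of -0.37. Pola1, the catalytic subunit of polymerase alpha, which extends primers, read 4.87, 1.94 and 3.95 FPKM in si-NC and 1.04, 1.96 and 2.30 in si-circCpsf6. Its log2 fold change was -0.70 ± 0.30 (SE, n = 3 per group; limma adjusted p = 0.241). The partner subunit Pola2 was at -0.19, and the primase genes Prim1 and Prim2 were at -0.37 and -0.40. Pole2, an accessory subunit of the leading-strand polymerase epsilon, read 13.34, 7.83 and 9.86 FPKM against 4.17, 7.94 and 7.64, a log2 fold change of -0.59 ± 0.26 (SE, n = 3 per group; limma adjusted p = 0.258). For both named genes si-NC replicate 2 overlapped the si-circCpsf6 range. The exons of Pole2 overlap Gm49384 on the same strand. The catalytic subunits of the leading-strand and lagging-strand enzymes, Pole and Pold1, were at -0.22 and -0.46, and the delta subunits Pold2 and Pold3 at -0.14 and -0.17. The log2 ratio of Pole to Pold1 was -0.79, -0.88 and -0.88 in si-NC and -1.13, -0.37 and -0.29 in si-circCpsf6, with si-circCpsf6 values on either side of the si-NC values (exact two-sided permutation test, p = 0.4). With all 6 libraries, 0 of the 9 had groups that did not overlap (14% of tested genes). At an unadjusted p under 0.05, 1 was lower (10.1% of tested genes). Without si-NC replicate 2, all 9 had every si-circCpsf6 value below both si-NC values (20.9% of tested genes). In that fit 6 were lower at an unadjusted p under 0.05 (9.3%). That library was left out for its low values in these genes, so both counts rise by construction.

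Log2 fold changes of the clamp and clamp loader genes ran from -0.81 to 0.06, and no test compared these genes with each other. Pcna, the sliding clamp and the highest of the 52 in FPKM, read 74.04, 30.99 and 70.54 FPKM in si-NC and 21.25, 29.90 and 45.00 FPKM in si-circCpsf6. Its log2 fold change of -0.81 ± 0.38 (SE, n = 3) did not pass the test (limma adjusted p = 0.283). Si-NC replicate 2 lay within the si-circCpsf6 range, and Pcna has 2 annotated pseudogenes with which reads could be shared. Of the clamp loader, Rfc5 was the lowest: 10.03, 5.12 and 8.12 FPKM against 3.76, 4.28 and 5.07, groups that just failed to overlap between si-NC replicate 2 and si-circCpsf6 replicate 3. Its log2 fold change was -0.67 ± 0.23 (SE, n = 3 per group; limma adjusted p = 0.163). Exons of Rfc5 overlap Wsb2 on the opposite strand. Rfc1, the large subunit, and Rfc2 were at -0.24 and -0.39, while Rfc3 and Rfc4 were at 0.06 and 0.02. Rfc3 read 12.61, 7.90 and 11.33 FPKM in si-NC and 10.73, 10.39 and 11.57 in si-circCpsf6. Its si-circCpsf6 values fell inside the si-NC range, with an interval of -0.36 to 0.47 around the log2 fold change. Without si-NC replicate 2 the value for Rfc3 was -0.12.

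Replication protein A coats the unwound single strands. Its large subunit Rpa1 read 12.52, 10.81 and 10.60 FPKM in si-NC and 4.32, 5.59 and 9.82 in si-circCpsf6. Here si-NC replicate 2 did not stand apart, the groups did not overlap, and si-circCpsf6 replicate 3 came near the si-NC libraries. The log2 fold change was -0.76 ± 0.25 (SE, n = 3 per group; limma adjusted p = 0.155), and -0.79 without si-NC replicate 2. Exons of Rpa1 overlap the microRNA gene Gm47300 on the same strand. The middle subunit Rpa2 showed the common pattern, with 20.23, 8.56 and 17.43 FPKM against 7.80, 9.41 and 12.38 (log2 fold change -0.54 ± 0.31, SE, n = 3 per group; limma adjusted p = 0.381). The small subunit Rpa3 was at -0.12 (95% interval -0.55 to 0.31), and its 35.50 FPKM in si-circCpsf6 replicate 2 was near the highest si-NC value of 36.22.

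Okazaki fragments are trimmed by the flap nuclease Fen1 and joined by DNA ligase 1. Fen1 read 7.63, 9.57 and 21.08 FPKM in si-NC and 4.74, 11.81 and 15.03 in si-circCpsf6, so each group spanned low and high libraries. Its log2 fold change of -0.26 ± 0.46 (SE, n = 3 per group; limma adjusted p = 0.796) turned to 0.15 when si-NC replicate 3 was dropped and to 0.18 when si-circCpsf6 replicate 1 was. Exons of Fen1 overlap Tmem258 and Gm10143 on the opposite strand. Lig1 was steady in si-circCpsf6, at 19.79, 20.25 and 22.19 FPKM, and read 42.09, 18.32 and 32.89 FPKM in si-NC, a log2 fold change of -0.49 ± 0.27 (SE, n = 3 per group; limma adjusted p = 0.371). Its si-NC replicate 2 was lower than every si-circCpsf6 library. Exons of Lig1 overlap Zswim9 on the opposite strand.

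In nucleotide supply, Tk1, the thymidine salvage kinase, had the lowest log2 fold change. It read 11.92, 3.90 and 9.32 FPKM in si-NC and 4.30, 3.29 and 2.33 in si-circCpsf6. Si-circCpsf6 replicate 3 was the lowest for Tk1, where replicate 1 was the lowest for most of the genes. The log2 fold change was -1.04 ± 0.36 (SE, n = 3 per group; limma adjusted p = 0.168), and -1.45 without si-NC replicate 2 (limma adjusted p = 0.0727). It was -0.86 without si-circCpsf6 replicate 3. Exons of Tk1 overlap Afmid on the opposite strand. Rrm2, the cycle-regulated subunit of ribonucleotide reductase, read 33.47, 12.68 and 25.93 FPKM against 8.03, 13.90 and 16.72, a log2 fold change of -0.80 ± 0.38 (SE, n = 3 per group; limma adjusted p = 0.282). Its partner Rrm1, which holds the active site, was at -0.28, and the log2 ratio of Rrm2 to Rrm1 was 0.52, -0.05 and 0.39 in si-NC and -0.73, -0.10 and 0.03 in si-circCpsf6. The ratio was highest in the si-NC libraries where both were high, and si-NC replicate 2 again lay among the si-circCpsf6 values (exact two-sided permutation test, p = 0.2). Thymidylate synthase, Tyms, which has a pseudogene of its name, was at -0.21, and the dUTPase gene Dut at -0.44.

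Both E cyclins read lower and their kinase did not. Ccne2 read 15.77, 7.09 and 12.55 FPKM in si-NC and 3.62, 7.07 and 7.48 in si-circCpsf6, a log2 fold change of -0.85 ± 0.33 (SE, n = 3 per group; limma adjusted p = 0.203). Ccne1 read 16.69, 8.12 and 14.01 FPKM against 6, 8.71 and 8.12, a log2 fold change of -0.66 ± 0.26 (SE, n = 3 per group; limma adjusted p = 0.213). Si-NC replicate 2 overlapped the si-circCpsf6 values of both cyclins. Cdk2, the kinase they activate, read 5.13, 2.74 and 3.77 FPKM in si-NC and 6.10, 2.98 and 4.16 in si-circCpsf6, with wide overlap and a log2 fold change of 0.14 (95% interval -0.47 to 0.75). That value turned to -0.04 when si-NC replicate 2 was dropped and to -0.08 when si-circCpsf6 replicate 1 was. Exons of Cdk2 overlap Pmel, and those of Ccne2 overlap Ints8, on opposite strands. The log2 ratio of Ccne1 to Ccne2 was 0.08, 0.20 and 0.16 in si-NC and 0.73, 0.30 and 0.12 in si-circCpsf6 (exact two-sided permutation test, p = 0.3).

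Of the chromatin factors, Uhrf1, which reads hemimethylated DNA behind the fork, read 47.78, 17.85 and 39.22 FPKM in si-NC and 16.00, 20.05 and 19.14 in si-circCpsf6. Its log2 fold change was -0.79 ± 0.33 (SE, n = 3 per group; limma adjusted p = 0.237), and -1.2 without si-NC replicate 2. Dnmt1, the maintenance methyltransferase that Uhrf1 brings to new DNA, read 50.41, 28.08 and 41.93 FPKM against 25.39, 26.90 and 30.09, a log2 fold change of -0.50 ± 0.21 (SE, n = 3 per group; limma adjusted p = 0.247). Both were as low in si-NC replicate 2 as in si-circCpsf6. Slbp, which binds the stem-loop of histone mRNAs, was at -0.28.

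For the 5 within-library ratios compared (those above and Orc1 to Orc4), the test could not decide whether the groups differed. Adjusted over the 5, p was 0.8 for Cdt1 to Gmnn and 0.5 for each of the others, and 3 against 3 libraries cannot give an exact p below 0.1. The log2 ratio of Orc1 to Orc4 was -0.64, -2.20 and -1.18 in si-NC and -2.44, -2.62 and -1.73 in si-circCpsf6, a difference of -0.93 with overlapping groups (exact two-sided permutation test, p = 0.2).

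**Figure D4:**
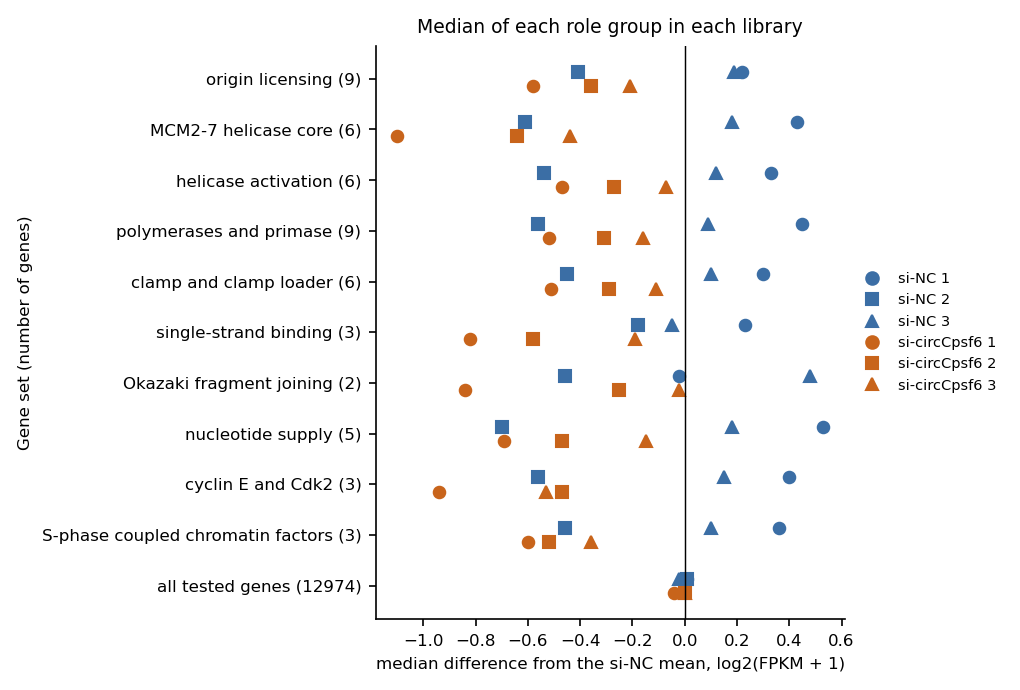
Median difference from the si-NC mean in log2(FPKM + 1) for each role group in each library, blue for si-NC and orange for si-circCpsf6. Si-NC replicate 2 (blue squares) lies among or below the orange points in most groups, while the medians over all 12974 tested genes lie near 0.

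The low values of si-NC replicate 2 were set beside those of si-circCpsf6 gene by gene. This was done with 2 differences that share no library: si-NC replicate 2 minus si-NC replicate 1, and the si-circCpsf6 mean minus si-NC replicate 3, both in log2(FPKM + 1). The pairing of libraries was chosen after the values were seen. Si-NC replicate 2 was already known to be the lowest si-NC library for 47 of the 52, and replicate 1 the highest for 45. The first difference is therefore below 0 for most of them by construction. Both differences were below 0 for 47 of the 52 genes (90.4%), against 26.1% of the tested genes. The tested genes did not guide the choice, so their share is not a like comparison. Across the 52 genes Pearson's r was 0.48 and Spearman's rho 0.49, and across all 12974 tested genes both were 0.08. Genes are not independent replicates, and all values of a library share its depth and scaling. Tk1, Cdc6, Mcm6 and Uhrf1 stood at the low end of both differences, Orc3 and Orc4 near 0 in both, and Fen1 apart, at 0.29 for the first difference and -1.06 for the second.

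**Figure D5:**
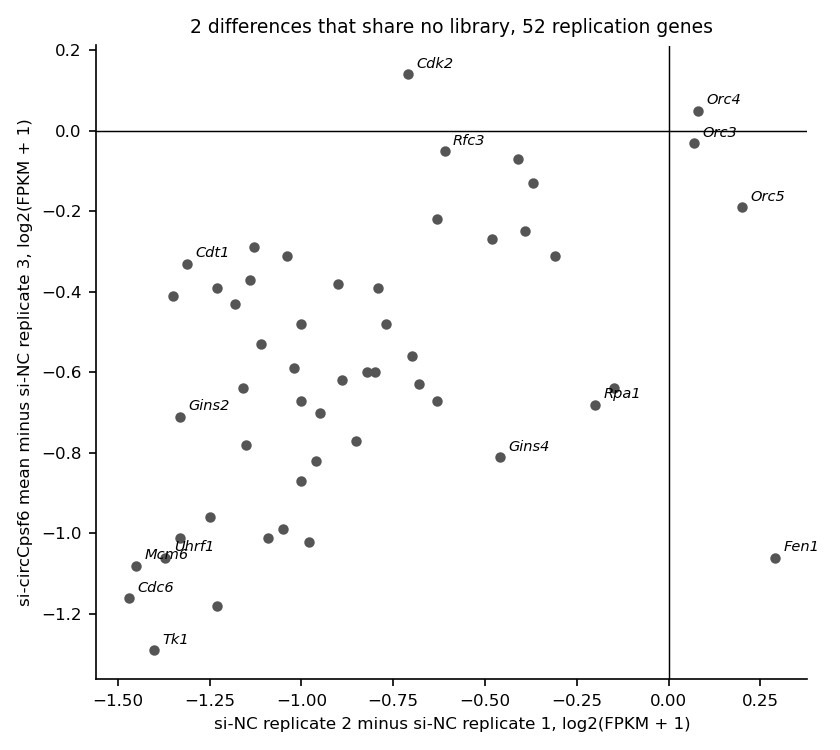
Each point is a replication gene, with si-NC replicate 2 minus replicate 1 on the x axis and the si-circCpsf6 mean minus si-NC replicate 3 on the y axis, in log2(FPKM + 1). Of the 52 points, 47 lie in the lower left quadrant.

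In level, the 52 genes ranged from 45.3 FPKM for Pcna to 1.98 FPKM for Orc1 as means over the 6 libraries. Pcna had the highest mean and Orc1 the lowest of the 52 in each group. FPKM are scaled by length, so these are levels per length.

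A list of 46 further replication genes gave a similar picture, with 45 tested. Of these 36 were below 0, with a median of -0.32, and 0 passed the limma test. At an unadjusted p under 0.05, 9 were lower and 1 was higher, against the 10.1% and 10.2% given above. The higher gene was Rrm2b, the p53-induced subunit of ribonucleotide reductase, at 2.57, 2.89 and 2.58 FPKM in si-NC and 4, 5.96 and 6.41 in si-circCpsf6. Its groups lay apart in the direction opposite to Rrm2 (log2 fold change 0.79 ± 0.18, SE, n = 3 per group; limma adjusted p = 0.0733). In the authors' deposited table Rrm2b was marked as significant and higher and Cdca7 as significant and lower, and these were the only marked genes among the 46. Dbf4, the activating subunit of the Cdc7 kinase, also read higher in all 3 si-circCpsf6 libraries (log2 fold change 0.38, limma adjusted p = 0.285), and Cdc7 itself read lower in all 3 (-0.27, limma adjusted p = 0.327). Dtymk, the kinase after Tk1 in making dTTP, read 32.13, 23.25 and 29.29 FPKM against 14.16, 18.87 and 19.37 (log2 fold change -0.66, limma adjusted p = 0.1). Pole4, a small subunit of polymerase epsilon, read 12.02, 11.40 and 16.12 FPKM against 4.65, 9.27 and 6.15 (-0.91, limma adjusted p = 0.097). The authors' deposited table gave a q of 0.04 for Dtymk and 0.03 for Pole4, both lower and neither marked. The marked Rrm2b and Cdca7 also had a q under 0.05 there. The si-circCpsf6 values lay wholly below si-NC for 8 of the 45, Dtymk, Pole4, Cdc7, Nasp and Cdca7 among them, against the 14% of tested genes, and wholly above for 2 (Rrm2b and Dbf4), against 12.8%. The helicase gene Mcm8 was at -0.62, the histone chaperone gene Nasp at -0.52 and Cdca7, a partner of the chromatin remodeller Hells, at -0.92, with limma adjusted p values of 0.213, 0.142 and 0.161.

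A heptamer, GCAGAAT, had been found in earlier work on these same values to be frequent in 3′ untranslated regions of genes with low fold changes, so it was looked up in the replication genes as a description only. In the longest annotated 3′ untranslated region it stood in 6 of the 52 genes (11.5%), close to the 1189 of 10668 tested genes searched (11.1%). The 6 were Gins4, Rfc5, Mcm6, Orc1, Rfc2 and Orc4. Their median log2 fold change was -0.60, against -0.42 for the 46 without it, and over tested genes the medians were -0.13 with and -0.01 without. The sites of 4 of them are shown because they include 2 genes with groups that did not overlap (Gins4 and Rfc5) and a gene above 0 (Orc4). The heptamer is in capitals, 5′ to 3′ on the gene's strand, all on the minus strand of GRCm38.
Gins4, chr8:23226926-23226954: aaggcgccgatGCAGAATtcccttcgttg
Rfc5, chr5:117379395-117379423: aggaggctgagGCAGAATtgccaggcagc
Mcm6, chr1:128333361-128333389: tcctaaaataaGCAGAATttaggtaaaag
Orc4, chr2:48904515-48904543: gtaaagtatctGCAGAATtaaatgctctt
Cdc6, Tk1, Rpa1, Pcna and the ring genes other than Mcm6 had no copy there.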

How the data were processed

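RNA was extracted with Trizol and sequenced on an Illumina platform, and the kit named for the mRNA libraries is a small RNA kit, per the labels' protocols. The authors deposited 1 table with FPKM values per gene and library, rounded to 2 decimals, per the file headers. Further deposited columns give the fold change (a ratio), its log2, and p-values and q-values rounded to 2 decimals, per the file headers. No source used here gives the program behind the FPKM, the authors' test, the annotation or the strand handling. Bowtie 0.12.2 is listed with no role, per the submitters' processing notes, beside older mouse builds.

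Groups and replicate numbers came from sample titles. Genes averaging 1 FPKM or more over the 6 libraries were tested on log2(FPKM + 1) with limma 3.58.1 (R 4.3.3, trended prior, no covariate), and p was adjusted by Benjamini-Hochberg over these 12974 genes. An adjusted p under 0.05 was a call. This scale understates the fold changes of low genes. The fit was tested on simulated data with independent noise for each gene, which hold no shift of a library shared by many genes. The members and lists were chosen with earlier results of these data known. Libraries' values are given for the 2 genes with the smallest p in each of the 10 role groups and for the highest gene above 0 in its group, with Orc1, Mcm10 and other values added after they were seen. Other replication genes are the 2 with the smallest p in each of 4 groups. Positions, overlaps and 3′ untranslated regions of at least 50 bases came from GENCODE M21 (GRCm38), and promoters from RefSeq (GRCm38.p6). The fit was repeated with quantile normalization, with median centring, with 0.1 as pseudocount, without a filter, with a filter at 5 FPKM, without the trend, and with the replicate number as a block. Each library was left out in turn, the authors' q-values were read in place of the fit, and 1 was added before the ratios. Figures used Python 3.11.15 with matplotlib 3.10.9.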

Additional observations from a re-analysis of the deposited data

How the results depend on the processing

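No replication gene passed the adjusted test under any of the alternatives run with limma, and the smallest adjusted p lay between 0.0629 (Uhrf1, without si-NC replicate 2) and 0.269 (Gins4, without si-NC replicate 3). The authors' q-values called 6 lower and 0 higher. The median log2 fold change of the 52 genes, -0.44 in the reported fit, was -0.42 with median centring or quantile normalization and -0.49 with a pseudocount of 0.1, and -0.24 to -0.68 with 1 library left out. Over all genes, 117 were called higher and 102 lower. No filter on low values gave 4 and 9. Leaving out 1 library gave 1 to 43 and 2 to 44, and the cause was not tested. A filter at 5 FPKM left 43 replication genes, of which 39 were below 0.

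A fit with the replicate block called 6 genes higher and 5 lower over all genes. In it the median of the replication genes was -0.44 and 12 in place of 13 were lower at an unadjusted p under 0.05. Deviations of same-numbered libraries correlated at 0.103, 0.129 and 0.084, so the numbers were not taken to pair the libraries, although each library correlated best with its own number, a hint from the data and not from the design.

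With 1 library left out, log2 fold changes ran from -0.08 to 0.34 for Cdk2, -0.56 to 0.18 for Fen1, -0.46 to 0.45 for Gins2 and -0.12 to 0.18 for Rfc3. The values of the other sign were -0.04 and -0.08 for Cdk2, 0.15 and 0.18 for Fen1, -0.46 and -0.11 for Gins2 and -0.12 for Rfc3, with limma adjusted p values of at least 0.36. The number of reads is unknown, so counting error could not be set apart from other spread, and 3 libraries a group limit the precision.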
